A study of Danio rerio with 9 samples.

Results

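The transcripts described here gave a signal above most blank spots in zebrafish (Danio rerio) embryos at every stage measured, from cleavage to tailbud. Relative to a pool of all stages, they stood at least 4-fold higher at 75% epiboly to tailbud than at 64-cell to sphere. This holds for the means of these stages, on the scale used to choose the transcripts. The members are 239 of 16176 probe IDs, each an oligonucleotide spotted on the array. The members were chosen by their values on these same arrays. A member was brighter in the stage channel than the 95th percentile of blank spots on all 9 arrays, and its mean log2 ratio of 75% epiboly, 90% epiboly and tailbud lay at least 2 above that of 64-cell, high and sphere. Its ratio at sphere exceeded that at high by less than 1. For this choice background was subtracted from each spot and each array was centred on its median. Of the 16176 IDs, 5804 were above the blank level on all 9 arrays and 858 met the late rise, and all conditions together left 239.

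Each of the 9 stages was measured once. The early stages were 64-cell, high and sphere, the middle stages 30% epiboly, 50% epiboly and shield, and the late stages 75% epiboly, 90% epiboly and tailbud. Outbred wild-type embryos from 1 clutch, uninjected and kept at 28.5 °C, were pooled at 30 to 50 per stage. Stage RNA was labelled with Cy5 (red) and hybridised against Cy3-labelled (green) RNA of a reference that mixed equal amounts of total RNA from all stages. There were no biological replicates, so every value below comes from a single array per stage, and whole embryos cannot tell fewer transcribing cells from less RNA per cell.

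A zebrafish egg is laid with a store of maternal messenger RNA that directs the first divisions. Transcription from the embryo's own genome begins on a broad scale during the blastula stages (high, sphere), while many maternal transcripts are degraded. Some genes contribute both maternal and zygotic RNA, so that their transcripts are present from the start and increase once the genome is active. Epiboly is the spreading of the cell sheet over the yolk, and gastrulation begins around 50% epiboly and shield, when the germ layers and the embryonic organizer form.

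The probes are given by ID because the files do not pair the oligonucleotides with genes. Of the 239 member IDs, 0 matched a gene table, so no gene function is assigned. At the thresholds of the rule, the member with the smallest rise had a late minus early difference of 2.0006, and the nearest ID outside had 1.9997. For sphere minus high the corresponding values were 0.9998 inside and 1.01 outside. The lowest stage signal of a member was 1.01 times the blank level, against 0.996 times for the nearest ID left out on that condition.

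The stage signal gave the first view of how firmly these transcripts were present in the early embryo. The signal is the median Cy5 brightness of a spot, here divided by the 95th percentile that the 262 blank spots reached on that array (the blank level, 384.8 to 624 intensity units). Over the members, the median multiple was 3.17, 1.92 and 2.28 at 64-cell, high and sphere. It was 7.56, 9.15 and 5.52 at 30% epiboly, 50% epiboly and shield, and 14.6, 22.3 and 27.7 at 75% epiboly, 90% epiboly and tailbud. The first 3 stages were thus the dimmest, and the late stages the brightest. At high, 123 of the 239 members were under 2 blank levels, at sphere 99, and at 64-cell 57. At the other end, the brightest member reached 49.4 blank levels at 64-cell. Over all IDs the median Cy5 signal was 1003.75, 510.0 and 528.0 intensity units at 64-cell, high and sphere. The blank levels there were 595.75, 420.95 and 428.35, so the median ID also lay above them. The members' medians were 1886.0, 810.0 and 976.0.

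The name of maternally present transcripts therefore rests on unequal evidence. For 62 members the dimmest of the 3 early signals was at least 4 blank levels, for 51 it lay between 2 and 4, and for 126 it was under 2. A single blank spot could be brighter than the 95th percentile, and 19 members exceeded even the brightest blank spot on all 3 early arrays. The count per array was 214 at 64-cell, 50 at high and 19 at sphere. Whether the early signal of the dimmest members came from their own transcripts was not tested.

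**Figure D1:**
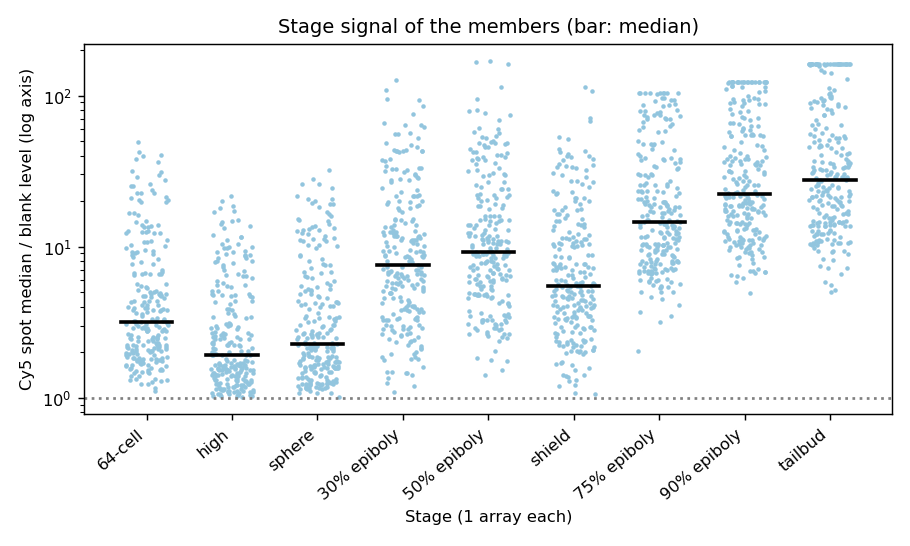
Stage signal of the 239 members by stage, as the Cy5 spot median divided by the blank level of the same array (log axis). Points are members, bars are medians, and the dotted line is the blank level. Medians lie between 1.92 and 3.17 at the first 3 stages and between 14.6 and 27.7 at the last 3, where a row of points marks spots at the scanner's upper limit.

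One member shows a clear early signal. It had the highest dimmest-early signal among members with no spot flag and no signal near scanner saturation (above 60000). Its Cy5 signal was 14.5, 10.4 and 11.2 blank levels at 64-cell, high and sphere, then 21.6, 18.1 and 13.4 at 30% epiboly, 50% epiboly and shield, and 38.8, 57.6 and 60.7 at 75% epiboly, 90% epiboly and tailbud. All 3 late values lay above all earlier ones. A contrasting member, the dimmest at an early stage, had 1.31, 1.01 and 1.23 blank levels at the first 3 stages and 6.0, 10.8 and 16.6 at the last 3. Its early Cy5 signals of 780.5, 424.0 and 525.5 intensity units were each below the median of all IDs on that array.

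All further ratios are log2 of stage over pool after background correction with normexp and loess normalization within each array, so levels are relative to the other probes of the array and are not amounts per embryo. On this scale the late minus early difference of the members had a median of 2.68, or 6.39-fold. In the 205 members never above 60000 intensity units, near the scanner's upper limit, it ranged from 1.76 to 5.15, or 3.40-fold to 35.4-fold. In the other 34 clipped spots can distort the ratio, and their exact folds are not given. The rule used this contrast, so these sizes describe the choice. The median ratio was -2.38, -2.31 and -2.06 at 64-cell, high and sphere. It was -0.40, 0.03 and 0.06 at the middle stages, in their order, and 0.40, 0.55 and 0.47 at the late stages. The early medians differed little, and the steepest part of the course lay between sphere and 30% epiboly. Over all 16108 tested probes the median stayed between -0.02 and 0.01 at every stage.

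**Figure D2:**
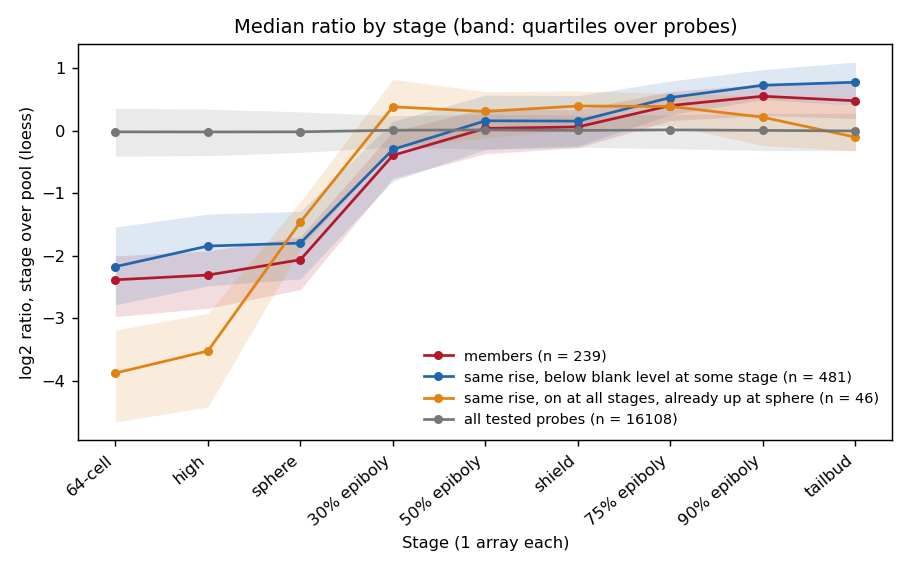
Median log2 ratio of stage over pool at each of the 9 stages, for the 239 members, for 481 probes with the same rise but a signal below the blank level at some stage, for 46 probes with the same rise that were already up at sphere, and for all 16108 tested probes. Bands span the quartiles over probes. The members' median is -2.06 at sphere and -0.40 at 30% epiboly, and reaches 0.55 at 90% epiboly.

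On the log2 scale, most of the members' rise was in place before gastrulation. At 30% epiboly, a late blastula stage, the median member had covered 70.1% of its late minus early log2 difference (quartiles 56.8% and 83.7%). At 50% epiboly the median was 84.5% and at shield 84.8%. At 30% epiboly 198 of the 239 members had covered at least 50% of the rise, 18 had reached or passed the late level, and 17 had covered under 25%. Members with late spots above 60000 are counted here, also among the 18, and clipping can distort their shares. The working name, transcripts boosted by late gastrulation, thus fits the level of the last 3 stages. By log2 shares it did not match the time of most of the increase. Without the log, the median stage signal was 3.17, 1.92 and 2.28 blank levels at the early stages. It was 7.56 at 30% epiboly and 14.6, 22.3 and 27.7 at the late stages. On that scale the median signal thus rose more after 30% epiboly than before it. The arrays also differed in brightness over all IDs. There the median Cy5 signal was 566.75 at 30% epiboly and 979.75, 808.0 and 746.75 at the late stages, with blank levels of 514.775, 624.0, 530.7 and 402.35. The members' stage signals were not normalized beyond the blank level, and shares of an unlogged rise were not computed for single members. Whether the timing by log2 shares carries over to an unlogged scale was therefore not settled.

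The timing contrast tested whether the middle arrays (30% epiboly, 50% epiboly and shield) stood nearer the late or the early log2 level. It is the mean of the middle arrays minus the midpoint of the early and late means. The rule used the early and late means, which enter the contrast with equal weight, and it required a stage signal above the blank level on the middle arrays too, so the test is not free of the choice of members. A probe with a large rise can nevertheless have a larger contrast, in either direction, than a probe without one. The contrast was positive, with the middle nearer the late level, for 161 of the 239 members, and negative for 5 (limma, two-sided, adjusted p under 0.05 over all 16108 tested probes). These were 67.4% and 2.09% of the members, against 12.0% called positive and 8.75% called negative of all tested probes. When only probes above the blank level on all 9 arrays were tested, 170 members were called positive and 6 negative, against 22.8% and 8.92% of those probes. The median timing contrast of the members was 0.77 on the log2 scale (range -1.05 to 2.85), and that of all tested probes 0.03. The highest value came from a member with Cy5 above 60000 on all 3 late arrays, where clipping can distort the contrast. Among 481 probes with the same rise that missed the blank level at 1 or more stages, 50.1% were called positive. The condition that separates these from the members also covers the middle arrays, so part of that difference can come from the choice. With 1 array per stage, the error of this test is the scatter of stages within each block of 3, which mixes array noise with real change.

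The counts depended on the scaling. With background means subtracted and median centring, 143 members were positive and 3 negative, while all probes split into 1339 positive and 1550 negative calls, against 1939 and 1410 after loess. With normexp and median centring the members gave 137 and 8, and all probes 1365 and 1762. With the medians of the authors' deposited log2 table subtracted the members gave 142 and 3, and all probes 1339 and 1542. By the dimmest early signal, in splits made after the values were seen, 66.7% of the 126 members under 2 blank levels were called positive, 70.6% of the 51 between 2 and 4, and 66.1% of the 62 at 4 or more. The median timing contrast was 0.89, 0.80 and 0.64 in these sets, and the median rise 2.99, 2.68 and 2.32, so both were smaller where the early signal was clearer. The part of dim early spots in these sizes was not tested.

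Some control spots also stood higher late than early, by less than the members. The 172 spots of the control CGENZFCTRL_40001_0 had a late minus early difference of 0.90 and a timing contrast of 0.21, and the 31 spots named pooled control had 1.04 and 0.38. From sphere to 30% epiboly the first went from -0.84 to -0.21, and the pooled control from -0.91 to -0.15. In both, most of the late minus early difference was thus in place at 30% epiboly, as in the members. All 7 kinds of control had a higher ratio at 30% epiboly than at sphere. Over the 7 kinds of control the late minus early difference lay between -0.44 and 1.04, and the timing contrast between 0.12 and 0.47. Of the 239 members, 239 had a late minus early difference above the highest of the controls, which the rule's threshold largely fixes, and 173 had a timing contrast above it. The sources used here do not say what these spots contain, and the part of what they measure in the members' values was not tested.

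**Figure D3:**
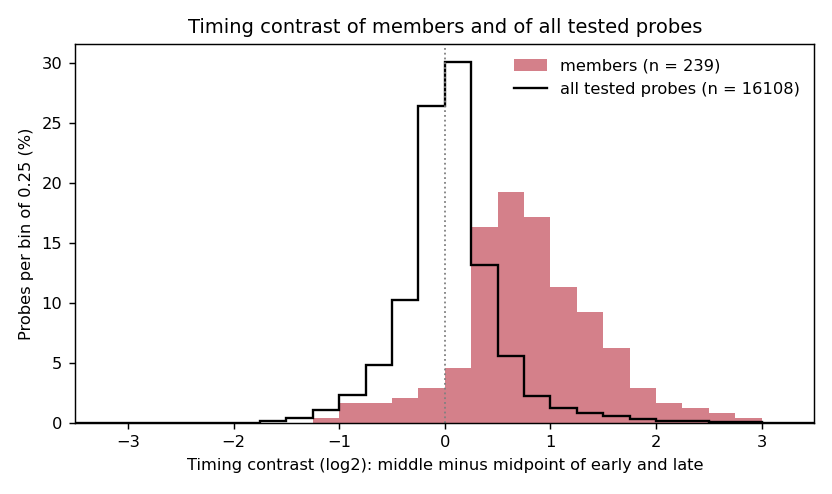
Distribution of the timing contrast, the middle level minus the midpoint of the early and late levels on the log2 scale, as the percent of probes in bins of 0.25, for the 239 members (filled) and all 16108 tested probes (line). The members centre on 0.77 and all tested probes on 0.03.

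**Figure D4:**
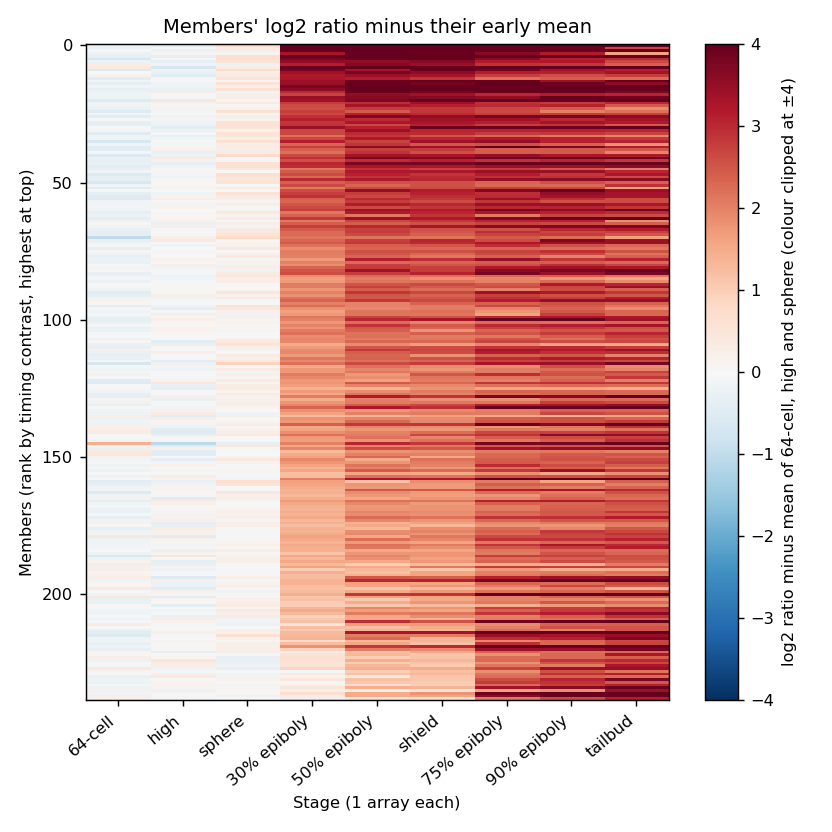
Log2 ratio of each of the 239 members minus its mean over 64-cell, high and sphere, by stage, with members ordered by their timing contrast from the highest at the top. Colour is clipped at 4 in either direction. Most rows turn red at 30% epiboly, where 207 members were at least 2-fold above sphere, while the rows at the bottom turn red at 75% epiboly.

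Taken step by step, the early stages contributed little. Sphere lay above 64-cell for 193 of the 239 members, by a median of 0.31, and 15 were at least 2-fold higher and 1 at least 2-fold lower (1.86% and 1.09% of all tested probes). The lowest ratio of the course fell at 64-cell for 146 members, at high for 69, at sphere for 23 and at 30% epiboly for 1. The rule limits the rise from high to sphere, so a small early step is partly its result.

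The step from sphere to 30% epiboly was the largest log2 rise between neighbouring stages for 210 members. At 30% epiboly the members were a median of 1.65 above sphere, or 3.13-fold, with quartiles of 1.27 and 2.18. Of the 239 members, 207 were at least 2-fold higher and 0 at least 2-fold lower, against 7.44% and 6.52% of all tested probes. The step was not particular to the members. Of 481 probes with the same rise but a signal below the blank level at some stage, 320 were at least 2-fold higher. Of 46 with the same rise that were already up at sphere, 41 were, and in both sets 0 were at least 2-fold lower. The rule used the early arrays and limited the rise from high to sphere, so all counts of this step describe the choice in part. At 30% epiboly 233 members stood above all 3 of their early values, and in 233 all 3 middle values lay above all 3 early ones. For these counts and for the largest step the share of all tested probes was not counted.

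The change was carried by the stage channel. Each channel was centred on its own array median. The members' Cy5 signal was then a median of 1.68 higher on the log2 scale at 30% epiboly than at sphere. In Cy5, 204 members were at least 2-fold higher, and the share of all tested probes was not counted for single channels. In the pool channel, Cy3, the median difference at that step was 0.0005, and 0 members were 2-fold higher or lower. Late minus early differences in Cy3 lay between -0.61 and 0.60, and in Cy5, clipped spots included, between 1.63 and 5.17. The rule used the ratio of the channels, and Cy3 held the reference pool on every array. These values therefore describe the choice and the design in part.

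Between 30% epiboly and shield most members continued upward, by an amount that depended on the scaling. After loess shield was above 30% epiboly for 233 of 239, by a median of 0.41, and 18 were at least 2-fold higher and 0 at least 2-fold lower (0.596% and 0.385% of all tested probes). With background means subtracted and median centring, 238 were higher at shield, by a median of 0.76, and 51 were at least 2-fold higher. On that scale the share of all tested probes was not counted. The fitted trend over the 3 middle arrays passed the threshold for 0 members in either direction (limma, adjusted over all tested probes), where the background was 0.0% up and 0.0% down. At an unadjusted p under 0.05, 43 members had an upward and 0 a downward trend. The share of all tested probes at that cutoff was not counted, so these counts cannot be compared with a background. The spread in that test had 3 residual degrees of freedom, and no other tool was run.

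From shield to 75% epiboly the direction depended on the scaling. After loess 195 members were higher at 75% epiboly, with a median difference of 0.36, and 23 were at least 2-fold higher and 0 at least 2-fold lower (0.813% and 1.46% of all tested probes). With background means subtracted and median centring, 116 were higher and the median difference was -0.02. The shield array was the dimmest in both channels, with a median Cy5 signal over all IDs of 325.0, while that of the 75% epiboly array was 979.8.

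Over the 3 late arrays the members were mixed. After loess tailbud was above 75% epiboly for 147 members and below it for 92, with a median difference of 0.09, and 9 were at least 2-fold higher and 5 at least 2-fold lower (1.68% and 1.66% of all tested probes). With background means subtracted and median centring, tailbud was above 75% epiboly for 170, and the median difference was 0.22. On that scale 14 were at least 2-fold higher, and the share of all tested probes was not counted. The late trend passed the threshold for 0 members (limma, adjusted p over all tested probes), against 0.0683% of all tested probes upward and 0.0559% downward. At an unadjusted p under 0.05, 27 members had an upward and 13 a downward trend, again without a count over all tested probes. After loess the highest ratio of the course fell at 75% epiboly for 40 members, at 90% epiboly for 69 and at tailbud for 97, and for 33 it fell at a middle stage. On the subtracted and centred scale these counts were 12, 97 and 77, with 53 at a middle stage, 50 of them at shield, so the leading stage within the late block depended on the scaling.

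The called classes of timing had distinct courses, given as descriptions because the calls used the same ratios. In the 161 positive members the median ratio was -2.11 at sphere, then -0.17, 0.21 and 0.22 over the middle stages, and 0.38 at tailbud. These had covered a median of 78.1% of their rise at 30% epiboly. In the 73 members with no call the median was -1.93 at sphere, -0.80 at 30% epiboly, -0.29 at shield, 0.43 at 75% epiboly and 0.77 at tailbud, a more even climb that had covered 50.6% at 30% epiboly. In the 5 negative members the median was -2.96 at sphere, -2.56 at 30% epiboly, -1.70 at shield, 0.13 at 75% epiboly and 1.16 at tailbud, with 7.5% of the rise covered at 30% epiboly. In these 5 most of the increase thus came after shield. The count of 5 was 3 or fewer when any 1 of 64-cell, high, sphere, 30% epiboly, 50% epiboly, 90% epiboly or tailbud was left out.

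The 2 members with the most positive timing contrast, among those called and with no spot flag on any array, were highest at a middle stage. CGENXEB_456000659_0 had ratios of -3.89, -3.67 and -3.28 at 64-cell, high and sphere, of 0.44, 1.08 and 1.09 at 30% epiboly, 50% epiboly and shield, and of 0.76, 0.29 and -0.94 at 75% epiboly, 90% epiboly and tailbud. It was highest at shield and had dropped below its 30% epiboly value at tailbud. Its timing contrast was 2.66 ± 0.32 (SE, 9 arrays; limma, adjusted p = 0.000497). The signal was 1.40, 1.08 and 1.61 blank levels at the first 3 stages and 21.0 at 50% epiboly, so its early presence is marginal.

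CGENXEB_456003787_0 followed a like course, with ratios of -3.29, -2.94 and -2.97 at the first 3 stages, 0.24, 1.25 and 0.96 at the middle stages, and 0.57, 0.11 and -1.47 at the late stages. It was highest at 50% epiboly. Its timing contrast was 2.48 ± 0.38 (limma, adjusted p = 0.00161). The signal of this probe was 1.95, 1.63 and 1.45 blank levels at the first 3 stages, so its early presence is marginal too. The fall from 75% epiboly to tailbud did not pass the threshold for either probe, with a fitted change of -1.70 ± 0.29 (limma, adjusted p = 0.0707) for CGENXEB_456000659_0 and of -2.03 ± 0.40 (adjusted p = 0.0926) for CGENXEB_456003787_0.

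The 2 members with the most negative timing contrast under the same conditions were highest at tailbud. CGENXEB_456015217_0 had ratios of -1.45, -1.71 and -1.70 at 64-cell, high and sphere, of -1.86, -1.14 and -1.08 at 30% epiboly, 50% epiboly and shield, and of 0.50, 1.01 and 1.51 at 75% epiboly, 90% epiboly and tailbud. It was lowest at 30% epiboly. Its signal was 10.3 blank levels at 64-cell, 3.03 at 30% epiboly and 59.9 at tailbud, a clear early signal followed by a late rise. The timing contrast was -1.05 ± 0.23 (SE, 9 arrays; limma, adjusted p = 0.00902).

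CGENXEB_456009834_0 had ratios of -3.24, -2.91 and -2.96 at the first 3 stages, -2.56, -1.60 and -1.70 at the middle stages, and 0.30, 0.61 and 1.16 at the late stages. Its signal was between 2.30 and 4.38 blank levels at the first 6 stages and reached 80.7 at tailbud. The timing contrast was -0.77 ± 0.24 (limma, adjusted p = 0.0399), and it missed the threshold under 8 of 14 alternatives, without the 30% epiboly array at -0.47 (adjusted p = 0.162; range over all alternatives 0.0163 to 0.162).

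**Figure D5:**
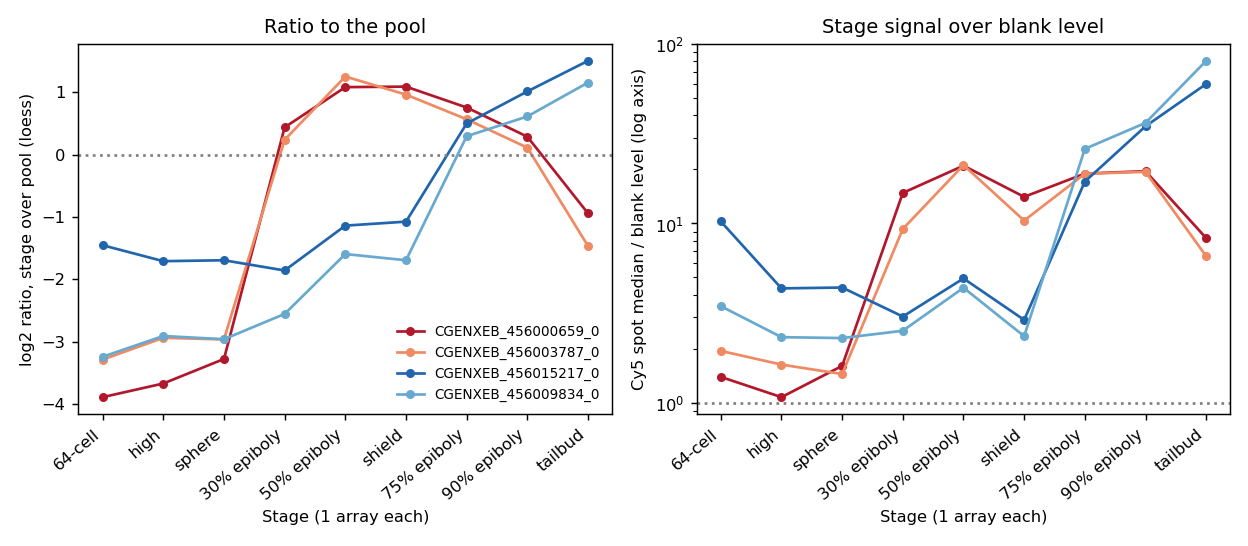
The 4 probes named by the rule at each of the 9 stages, as the log2 ratio of stage over pool (left) and as the Cy5 spot median divided by the blank level (right, log axis; dotted line at the blank level). CGENXEB_456000659_0 and CGENXEB_456003787_0 peak at shield and 50% epiboly, while CGENXEB_456015217_0 and CGENXEB_456009834_0 are highest at tailbud.

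The largest rises took different courses. The member with the largest measured rise had ratios of -4.44, -5.53 and -4.52 at the first 3 stages, -0.87, 0.10 and 0.16 at the middle stages, and 0.44, 0.36 and 0.32 at the late stages. Its Cy5 spot was above 60000 at 90% epiboly and tailbud, so clipping can distort its late level and its rise, and its fold is not given. The share of its rise in place at 50% epiboly can be distorted in the same way, and clipped rises have no settled rank. The largest rise in a member with no flag and never above 60000 was 35.4-fold, with ratios of -4.59, -4.51 and -4.25 early, -2.62, -1.63 and -1.42 in the middle and 0.60, 0.62 and 0.87 late. Its timing contrast was -0.01 ± 0.23 (limma, adjusted p = 0.978), a climb in stages with a middle level at the midpoint.

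Sets of other probes with the same late rise are set beside the members for comparison. The 481 probes that met the rise and sphere conditions but were below the blank level at 1 or more stages had a median ratio of -1.80 at sphere and -0.30 at 30% epiboly. On the timing contrast 161 members (67.4%) were called positive and 5 negative, against 241 (50.1%) and 9 of these 481, and the median was 0.77 in the members and 0.59 in the 481. The late trend was called upward for 0 members and for 7 of the 481. The 46 probes on at all stages that had already risen by at least 1 from high to sphere gave 34 positive and 0 negative calls, with a median timing contrast of 1.83. The median ratio of the members was -0.40 at 30% epiboly and 0.47 at tailbud, and that of the 46 was 0.38 and -0.11. The blank-level condition that separates the members from the 481 also covers the middle arrays, which can add to their difference in timing. These differences between sets were not tested.

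Spot quality was uneven among the members. Of the 239, 163 had no flag from the image software on any array, and 107 of these were called positive and 3 negative on the timing contrast, while among the 76 with a flag the numbers were 54 and 2. The Cy5 spot median exceeded 60000 on 1 or more arrays for 34 members, with 30 of them that bright at tailbud, and 8 were that bright in Cy3. Without the 34, 135 of 205 members were positive and 5 negative. The 5 members printed as 2 spots had rises that differed by at most 0.60 between their spots, on the subtracted scale. In 2 of these members a single spot had a rise of 1.73 or 1.97, under the threshold that the mean of the pair met. The members lay in all 32 print blocks of the array, with 1 to 14 members in each.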

How the data were processed

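The deposited scanner tables hold spot and local background intensity per channel on a linear scale, not normalized, per the file headers, which name ImaGene and give channel 1 as red. The sources used here do not give the image settings or what the flag codes mean. RNA was linearly amplified before labelling, per the labels' protocols. The authors' deposited value table holds log2 ratios of stage over pool. They equalled the ratio of background-subtracted spot means, averaged per ID, within 0.001 for 99.2% to 99.3% of IDs per array and are not centred (column medians -0.95 to 0.02).

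Members were found on subtracted, median-centred ratios with spots of an ID averaged. The members, the tests and the rule for named IDs were chosen with earlier results of these data known. The rule took the 2 most positive and 2 most negative timing contrasts among called members with no spot flag. The 2 sets compared and all splits of members were chosen after values were seen.

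Ratios were computed with normexp (offset 50) on spot means and background medians, and loess within arrays with controls at weight 0 (limma 3.58.1, R 4.3.3). Testing required a spot median over the background median plus 2 background SD, in either channel, on at least 3 arrays, which kept 16108 probe IDs, all 239 members among them. The timing fit had 6 residual degrees of freedom. The trends came from a line within each block of 3 stages, with 3. All p-values are two-sided, adjusted by Benjamini-Hochberg across every probe in the fit, and called under 0.05. The fits were also run on simulated ratios with known contrasts and independent normal noise. Those ratios lack the choice of members and spots limited by dimness or clipping, so no conclusion is drawn from them here. Stages of 1 clutch are not independent samples, and the number of arrays limits precision. The series text mentions dye swaps. No swapped array was analysed here, so a probe's dye effect stays in its ratio and cancels between stages if constant.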

Additional observations from a re-analysis of the deposited data

How the results depend on the processing

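The count of members was 239 and lay between 222 and 263 with other averaging, background, blank level and normalization. It was 846 with a rise of at least 1 and 82 with a rise of at least 3. Leaving out 1 array gave 225 to 322 members, of which 221 to 239 were shared. The counts of 322 without high and 316 without sphere also lack the sphere minus high condition. With that condition kept, the highest count was 271, without 75% epiboly. Over all these choices 48.1% to 69.5% of the members were among the probes called positive on the timing contrast in the main fit. The calls were not refitted for each choice of members. The number of positive timing contrasts, 161, stayed within 1.5-fold in every alternative run, from 119 without the shield array to 176 without 30% epiboly. Over all 16108 tested probes the positive calls moved too. They were 1106 without shield and 1426 without 30% epiboly, against 1939 in the main fit. With 1 array left out they ranged from 1091 without 50% epiboly to 2222 without sphere. The 5 negative ones became 3 with background means subtracted, 8 with normexp and median centring and 3 in the authors' value table, and 1 to 7 when 1 array was left out (1 without high, 30% epiboly or 90% epiboly), while leaving the dim probes in gave 4. The cause was not tested. Middle and late trends were called for 0 members throughout. The 4 named contrasts kept their sign, and CGENXEB_456009834_0 alone lost its call, under 8 of 14 alternatives. No paired analysis was possible because each stage has 1 sample. Dim early spots limit the early ratios, with 126 members under 2 blank levels.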
